A study of Mus musculus with 8 samples.

Results

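The nuclear genes of respiratory complexes II to V, with cytochrome c, ATP synthase and its inhibitor, were examined in mouse striatum by array. Members were the probes whose gene symbol is Sdha to Sdhd, Cyc1, Cycs, Usmg5 or Atpif1, or starts with Uqc, Cox4 to Cox8 or Atp5, without Cox6a2 and Cox7a1. The rule named 55 probes of 45 genes, out of 25697 probes and 18138 symbols in the table. A detection p-value under 0.05 on 4 or more of the 8 arrays was then required, which left 45 probes of 38 genes, out of 13413 detected probes of 10008 genes. Of the 38 genes, 37 were detected on all 8 arrays and Cox6b2 on 7.

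Complex II (succinate dehydrogenase) passes electrons from succinate to ubiquinone, complex III passes them on to cytochrome c, and complex IV (cytochrome c oxidase) hands them to oxygen. Complexes III and IV pump protons across the inner mitochondrial membrane, and complex V (ATP synthase) lets the protons back through its membrane part, Fo, to drive ATP synthesis in its soluble part, F1. PGC-1α, encoded by Ppargc1a, is a coactivator that raises transcription of many of these genes through factors such as NRF1, GABP and ERRα. Neurons depend heavily on this machinery to pay for ion pumping and synaptic transmission. The subunits encoded by mitochondrial DNA are not analysed here.

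The arrays held total RNA of striatum from PGC-1α null mice (4 arrays) and from PGC-1α wild type mice (4 arrays), all at postnatal day 30 and on the C57BL/6 background. In its title the series places the deletion in medium spiny neurons, the striatal projection neurons, while the sample labels say null. The sample labels do not say which cells lost the gene, and neither the allele nor a Cre line is named in the sources used here. The labels give medium spiny neurons as the cell type but striatum as the source, so other cell types of the tissue may have contributed RNA. Whether replicates were separate animals is not in the labels, and p-values then reflect only sample-to-sample spread, which may be technical. All arrays were on 1 chip, null in the last 4 positions and wild-type in the first 4, so position and group cannot be told apart.

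Raw intensity averaged 297 to 499 on null arrays and 295 to 467 on wild-type arrays, with 13127 to 13910 probes detected on null arrays and 13009 to 13767 on wild-type arrays. Values below are normalized signals on the log2 scale, and a difference is null minus wild-type with the standard error (SE) of the limma fit. Ppargc1a itself read 7.30, 8.09, 8.10 and 7.43 on null arrays 1 to 4, against 7.35, 7.22, 7.90 and 7.98 on wild-type arrays 1 to 4 (difference 0.12, SE 0.23). Both groups held high and low arrays of that gene. Pvalb, the parvalbumin gene, was high on null arrays 1 and 4 and on wild-type arrays 1 and 2. Ppargc1a read lower on those arrays than on the others of either group. Since the deleted stretch is unknown here, this probe may lie outside it and is no check of the genotype, so every direction below rests on the labels. Of the marker genes for medium spiny neurons, 10 were detected and all 10 were lower in null arrays (median -0.28), with a summed linear signal of 43836 to 66682 in null and 67037 to 77097 in wild-type arrays. The brightest genes weigh most in such a sum. On the log2 scale, the average deviation from each gene's own mean was -0.25, -0.52, 0.15 and -0.04 on null arrays 1 to 4. On wild-type arrays 1 to 4 it was 0.13, 0.18, 0.34 and 0.0004, so the groups overlapped on that measure. The 4 detected cortical neuron markers were all higher in null arrays (median 1.30), with sums of 672 to 3763 in null and 144 to 1073 in wild-type arrays; Neurod6, Slc30a3 and Rtn4r of that list were not detected. The 7 oligodendrocyte markers were all higher in null arrays (median 0.15), with sums of 74038 to 98684 in null and 50294 to 90805 in wild-type arrays. Their average deviation was -0.91 on wild-type array 3, 0.11 to 0.17 on the other wild-type arrays and -0.07 to 0.32 on null arrays. That of the cortical markers ran from -0.39 to 1.90 on null arrays and from -2.20 (array 1) to 0.36 on wild-type arrays. The groups overlapped in both lists. The 6 cholinergic, 5 endothelial and 4 mural markers were all lower in null arrays, with medians of -0.50, -0.27 and -0.20. Astrocyte markers were higher in 5 of 7 cases, microglial markers in 4 of 6 and parvalbumin interneuron markers in 3 of 5. In bulk tissue, fewer cells of a type and less RNA per cell cannot be told apart. The Y-linked gene Eif2s3y read 9.29 to 9.49 on null arrays 1, 2 and 4 and 4.41 on null array 3, against 9.14 on wild-type array 2 and 4.32 to 4.40 on the other wild-type arrays. The part of these differences in the results below was not tested.

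The promoters of the members are shown first, since these are the stretches through which PGC-1α partners are known to act. The RefSeq table (GRCm38.p6) held a promoter, from 250 bases before to 50 bases after a gene's start, for 31 of the 38 genes; the other 7 were not searched. The sequences printed belong to the 4 members with an unadjusted p under 0.05 at their brightest probe and to Sdhd, whose promoter held the most kinds of motif. Capitals mark letters of the motifs searched on both strands: the NRF1 core GCGCANGCGC and the short NRF1 element GCGCA within it, the ETS element CCGGAAG that GABP binds, the YY1 element AAGATGG and the ERR element AAGGTCA. The Usmg5 promoter lies at chr19:47090598-47090897, that of Uqcrh at chr4:116075021-116075320, that of Atp5j2 at chr5:145191492-145191791, that of Cox7a2l at chr17:83514284-83514583 and that of Sdhd at chr9:50603800-50604099, all on the minus strand and printed along the gene, 5′ to 3′.
Usmg5: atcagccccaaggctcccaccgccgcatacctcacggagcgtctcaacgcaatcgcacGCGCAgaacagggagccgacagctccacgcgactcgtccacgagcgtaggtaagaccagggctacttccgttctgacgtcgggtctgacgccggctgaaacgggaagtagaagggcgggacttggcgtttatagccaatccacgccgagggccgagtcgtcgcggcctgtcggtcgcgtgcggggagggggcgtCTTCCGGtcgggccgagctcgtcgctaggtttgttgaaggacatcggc
Uqcrh: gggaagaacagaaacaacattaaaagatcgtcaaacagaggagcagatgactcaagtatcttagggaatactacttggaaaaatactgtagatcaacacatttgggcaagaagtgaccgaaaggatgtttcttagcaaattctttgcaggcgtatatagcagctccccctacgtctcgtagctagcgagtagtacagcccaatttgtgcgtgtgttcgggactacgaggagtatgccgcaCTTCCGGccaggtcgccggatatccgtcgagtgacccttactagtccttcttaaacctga
Atp5j2: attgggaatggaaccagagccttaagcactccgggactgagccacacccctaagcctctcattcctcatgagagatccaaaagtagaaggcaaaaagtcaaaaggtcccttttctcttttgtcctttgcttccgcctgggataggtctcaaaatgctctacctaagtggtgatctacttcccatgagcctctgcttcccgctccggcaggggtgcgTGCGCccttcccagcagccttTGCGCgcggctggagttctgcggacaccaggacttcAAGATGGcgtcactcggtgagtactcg
Cox7a2l: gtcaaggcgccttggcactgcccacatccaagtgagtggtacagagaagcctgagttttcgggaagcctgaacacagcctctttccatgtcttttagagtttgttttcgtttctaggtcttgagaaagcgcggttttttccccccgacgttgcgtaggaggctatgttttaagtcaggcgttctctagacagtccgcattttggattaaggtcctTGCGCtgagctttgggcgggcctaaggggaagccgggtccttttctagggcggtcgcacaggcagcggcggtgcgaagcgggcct
Sdhd: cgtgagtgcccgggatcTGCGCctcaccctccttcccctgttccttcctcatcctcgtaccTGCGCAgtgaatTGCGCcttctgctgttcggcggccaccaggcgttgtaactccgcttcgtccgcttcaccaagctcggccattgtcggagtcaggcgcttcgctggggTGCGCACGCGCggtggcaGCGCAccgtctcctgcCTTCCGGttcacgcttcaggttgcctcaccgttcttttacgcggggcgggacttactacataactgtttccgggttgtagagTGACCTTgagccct

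Members held more of these letters than tested genes at large. The NRF1 core stood in the promoters of 9 of 31 members (29.0%), against 11.5% of 7622 tested genes with a promoter and 4.60% of all 32851 promoters in the table. The ETS element stood in 11 of 31 members (35.5%) and 19.5% of tested genes, or 8.86% of all promoters. ERR letters stood in 5 of 31 members (16.1%; Sdhd, Atp5e, Atp5g3, Atp5l and Atpif1) and 3.99% of tested genes, or 4.72% of all promoters. The short NRF1 element was common in both (71.0% of members, 57.2% of tested genes, 30.4% of all promoters), and the YY1 letters stood in 4 members (12.9%), in 8.83% of tested genes and in 6.34% of all promoters. A gene counted once if any of its promoters held the letters. These are letter matches, not measured binding sites, and the shares were not tested.

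**Figure D1:**
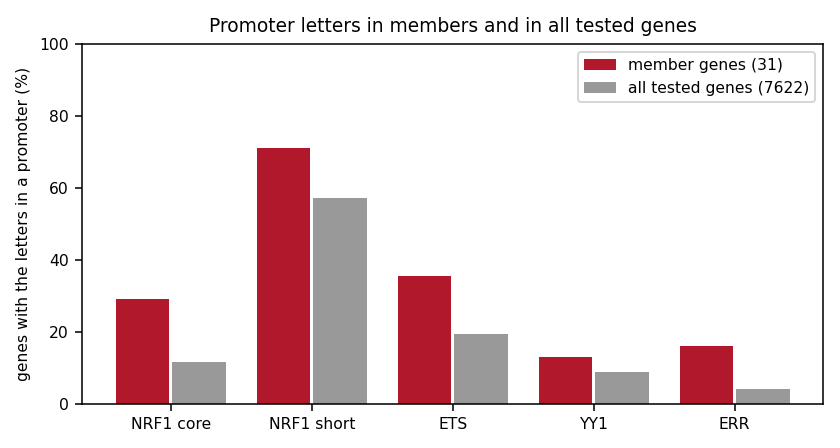
Percent of genes whose promoter (y axis) holds each set of motif letters (x axis), for 31 member genes (red) and 7622 tested genes (grey). The red bar is the taller for all 5 motifs, with 16.1% against 3.99% for ERR.

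Medians of the null minus wild-type difference are given here for members with and without each motif. The 9 members with the NRF1 core had a median difference of 0.09, and the 22 without it 0.14. The 11 members with the ETS element had a median of 0.15, with 10 of them higher in null arrays, and the 20 without it had 0.09, with 14 higher. The 5 members with ERR letters had a median of 0.15, and the 26 without them 0.11. For the short NRF1 element the median was 0.11 in the 22 members with it and 0.15 in the 9 without it. For the YY1 letters it was 0.11 in the 4 members with them and 0.12 in the 27 without them. These splits are descriptions without a test.

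No member passed the test in either direction, and most members read slightly higher in null arrays. With limma and Benjamini-Hochberg adjustment over all 13413 probes, 0 probes passed at 0.05 (0.0%), members included. The lowest adjusted p was 0.59 over all probes and 0.66 among members. At an unadjusted p under 0.05 stood 926 probes (6.9%). Of the 38 member genes, each represented by its brightest detected probe, 28 were higher in null arrays (73.7%), against 48.5% of the 10008 genes tested. Their median difference was 0.11, against -0.01 over all genes. The number at an unadjusted p under 0.05 was 4 higher, against a background of 3.04% of genes, and 0 lower, against 3.93%. Counted over all 45 detected member probes it was 5, since the dimmer Cox6a1 probe (0.27, SE 0.11) was added. The brighter Cox6a1 probe, used in the count of genes, was not under 0.05. Null arrays lay wholly above wild-type arrays for 3 members (background 1.5%) and wholly below for 0 (background 2.75%). A difference of 0.2 or more was seen in 10 members, and one of -0.2 or less in 0; the shares over all genes were 12.6% and 13.5%. The 95% intervals of the members reached a median of 0.29 to either side of the difference, and none extended beyond -0.48 or 0.84.

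**Figure D2:**
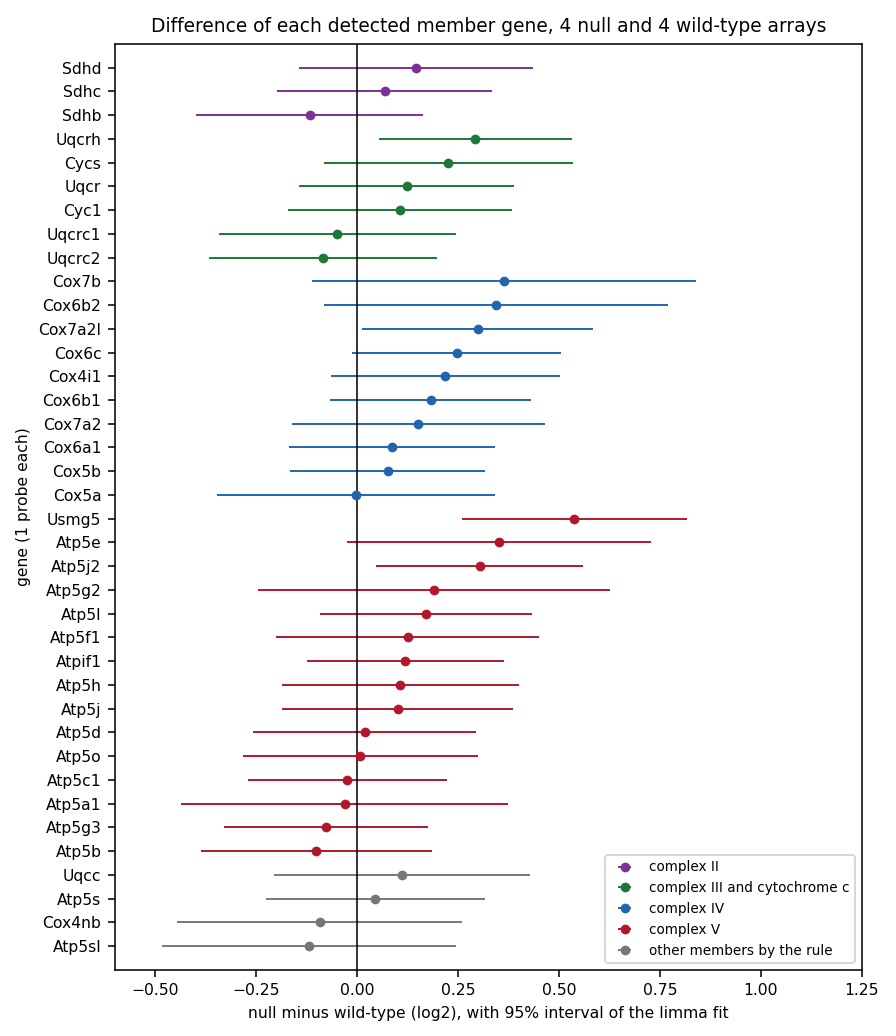
Null minus wild-type difference (x axis, log2) of the 38 detected member genes (y axis), with the 95% interval of the limma fit, coloured by complex. Points lie between -0.12 (Atp5sl) and 0.54 (Usmg5), and 4 intervals exclude 0 before adjustment.

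By complex, the median difference was 0.07 for complex II (2 of 3 genes higher in null arrays), 0.11 for complex III with cytochrome c (4 of 6), 0.20 for complex IV (9 of 10) and 0.11 for complex V (11 of 15). The 4 members by symbol alone (Uqcc, Cox4nb, Atp5s and Atp5sl), which are no subunits of these complexes in the lists used, had a median of -0.02 with 2 higher. The complex II median was 0.01 without null replicate 1, 0.02 without wild-type replicate 4, 0.04 without wild-type replicate 3 and 0.13 without wild-type replicate 1. That of complex III and cytochrome c was 0.06 without null replicate 4, 0.07 without wild-type replicate 3 and 0.18 without wild-type replicate 1. The complex V median was 0.06 without null replicate 1 or wild-type replicate 3 and 0.17 without wild-type replicate 1. Without any 1 array the complex IV median stayed between 0.15 and 0.25. Single genes also depended on single arrays. The differences of 9 genes (Usmg5, Uqcrh, Cox7a2l, Atp5j2, Cox6c, Cycs, Cox4i1, Cox6b1 and Atpif1) stayed within 1.5 times their value without any 1 array, and those of the other 29 moved further or changed sign without at least 1 array.

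The null and wild-type arrays overlapped in their average over the members. Averaged over the 38 genes, the deviation from each gene's own mean over the 8 arrays was 0.12, 0.01, -0.01 and 0.12 on null arrays 1 to 4, against 0.06, -0.06, -0.12 and -0.11 on wild-type arrays 1 to 4. Null arrays 1 and 4 were highest, wild-type arrays 3 and 4 lowest, and wild-type array 1 lay above null arrays 2 and 3, so the groups overlapped. Of the 38 genes, 30, 15, 18 and 27 were above their own mean on the 4 null arrays, and 26, 14, 6 and 4 on the 4 wild-type arrays. The highest reading of a gene was on null array 4 for 13 genes and on wild-type array 3 for 0, and the lowest was on wild-type array 4 for 11 genes. The complex IV deviation was 0.10, 0.02, 0.03 and 0.24 on null arrays, against 0.05, -0.18, -0.17 and -0.09 on wild-type arrays. Only wild-type array 1 reached into the null range there. On the same arrays the parvalbumin interneuron markers deviated by 0.47, -0.52, -0.68 and 0.60 in null and by 0.50, 0.66, -0.37 and -0.66 in wild-type, and the oligodendrocyte markers by 0.32, -0.07, -0.03 and 0.29 in null and by 0.11, 0.12, -0.91 and 0.17 in wild-type. Both lists were above their mean on null arrays 1 and 4, as the members were, while on wild-type array 2 the parvalbumin list was at its highest and the members were below their mean. On null array 1 only 3 of the 5 parvalbumin list genes (Pvalb, Cox6a2 and Cox7a1) were above their own mean. The part of these lists in the members' values was not tested.

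**Figure D3:**
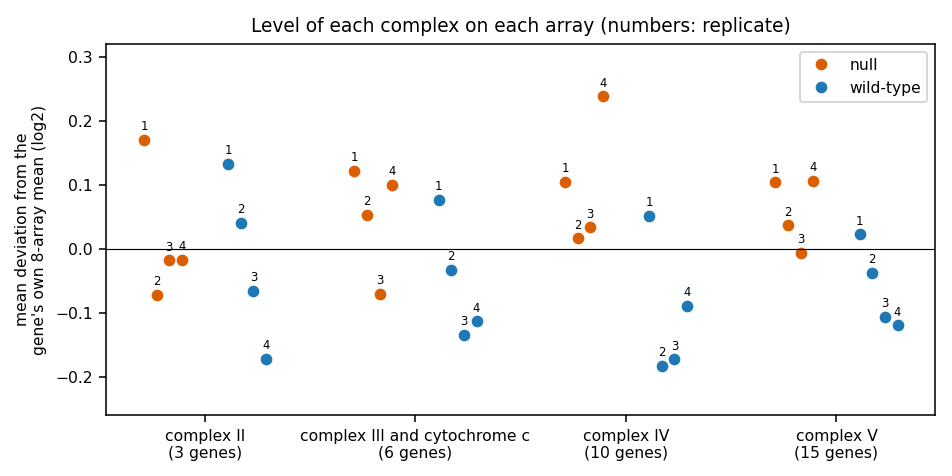
Mean deviation of the genes of each complex from their own mean over the 8 arrays (y axis, log2), with a point for each array (null orange, wild-type blue; numbers give the replicate). Wild-type array 1 lies among the null arrays in all 4 complexes, and the other wild-type arrays lie below the null arrays in complexes IV and V.

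**Figure D4:**
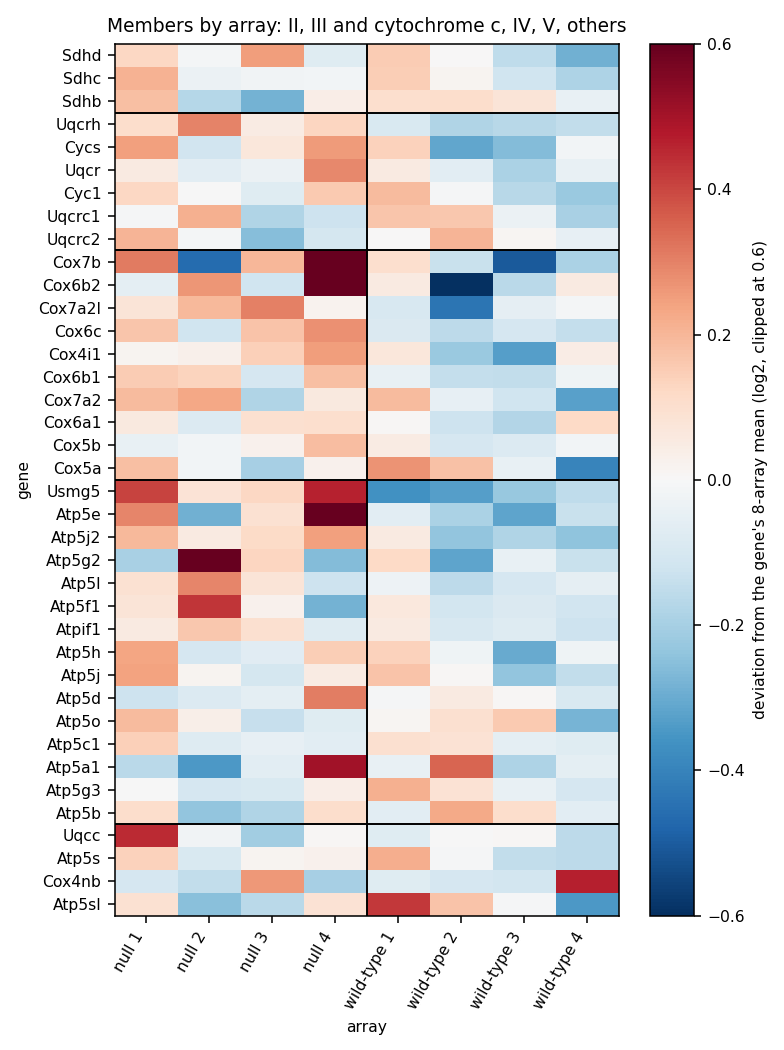
Deviation of each member gene (rows, grouped by complex) from its own mean over the 8 arrays (columns, null left of the line), in log2 with colours clipped at 0.6. Red prevails on null arrays 1 and 4 and on wild-type array 1, and blue on wild-type arrays 3 and 4.

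In complex II, the null and wild-type arrays overlapped for all 3 detected subunits. Sdhb, the iron-sulfur subunit, read 10.56, 10.21, 10.10 and 10.42 on null arrays, against 10.48, 10.49, 10.46 and 10.34 on wild-type arrays, differing by -0.12 (SE 0.13, limma adjusted p = 0.86). The null arrays were spread on both sides of the wild-type arrays. Its other 2 detected probes stood at 0.07 (SE 0.14) and 0.09 (SE 0.16), so the sign depended on the probe. Sdhc, a membrane anchor, read 10.54, 10.30, 10.31 and 10.31 on null arrays, against 10.48, 10.35, 10.21 and 10.14 on wild-type arrays (difference 0.07, SE 0.12). The null values lay close together except array 1, within the wild-type range or just above it. Sdhd, the other membrane anchor, read 8.38, 8.25, 8.51 and 8.19 on null arrays, against 8.41, 8.26, 8.11 and 7.97 on wild-type arrays (difference 0.15, SE 0.13), and the groups overlapped. A further Sdhc probe was detected on no array, and Sdha, the flavoprotein subunit, is not analysed here.

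In complex III, Uqcrh had the largest difference of the subunits. Uqcrh, the small hinge protein next to cytochrome c1, read 12.61, 12.80, 12.55 and 12.63 on null arrays, against 12.41, 12.32, 12.33 and 12.35 on wild-type arrays. All null arrays lay above all wild-type arrays, with a difference of 0.29 (SE 0.11, limma adjusted p = 0.70). Uqcr (now Uqcr11), another small subunit, read 12.99, 12.87, 12.91 and 13.23 on null arrays, against 12.99, 12.87, 12.75 and 12.89 on wild-type arrays (difference 0.12, SE 0.12). Only null array 4 stood clear of the wild-type range, and without it the difference was 0.047. Uqcrc1 and Uqcrc2, the core proteins, differed by -0.05 (SE 0.13) and -0.08 (SE 0.13), and Cyc1, cytochrome c1, by 0.11 (SE 0.13). Uqcrfs1, the Rieske iron-sulfur protein, and Uqcrq were each detected on 1 array, a null one, and were left out; their probes give no level here. Uqcc (now Uqcc1), an assembly factor of the complex, differed by 0.11 (SE 0.14).

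Cytochrome c, the mobile carrier between complexes III and IV and a trigger of apoptosis when released, gave probes of opposite sign. The brighter Cycs probe read 8.17, 7.81, 7.99 and 8.18 on null arrays, against 8.06, 7.61, 7.67 and 7.91 on wild-type arrays (difference 0.23, SE 0.14, limma adjusted p = 0.77). Null arrays 1 and 4 lay above every wild-type array, and null arrays 2 and 3 lay between wild-type arrays. The dimmer probe read 6.73, 6.22, 6.46 and 6.72 on null arrays, against 6.44, 6.91, 6.59 and 6.75 on wild-type arrays (difference -0.14, SE 0.15). The groups overlapped on both probes.

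Complex IV had the most uniform direction, with Cox5a the only one of its 10 detected genes not higher in null arrays (difference -0.003, SE 0.16). Cox7a2l, counted here with complex IV, read 10.75, 10.87, 10.98 and 10.70 on null arrays, against 10.58, 10.24, 10.62 and 10.67 on wild-type arrays. The groups did not overlap, although null array 4 and wild-type array 4 were close to each other, and the difference was 0.30 (SE 0.13, limma adjusted p = 0.71). Cox6c, a small accessory subunit, read 12.96, 12.68, 12.96 and 13.07 on null arrays, against 12.70, 12.64, 12.69 and 12.65 on wild-type arrays (difference 0.25, SE 0.12). Only null array 2 lay inside the narrow wild-type range. Cox6b2, the testis isoform of a subunit facing the intermembrane space, read 5.20, 5.53, 5.14 and 5.86 on null arrays, against 5.31, 4.63, 5.10 and 5.32 on wild-type arrays (difference 0.34, SE 0.19). It stood at 0.19 without wild-type replicate 2, 0.21 without null replicate 4 and 0.11 with no background correction. The probe was detected on 7 of the 8 arrays, and a second Cox6b2 probe was detected on no array.

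The remaining complex IV genes had smaller or more variable differences. Cox7b, encoded on the X chromosome, differed by 0.36 (SE 0.22) with the widest spread of any member, from 7.36 to 8.50 in null arrays and from 7.32 to 7.93 in wild-type arrays. It stood at 0.20 without null replicate 4 and at 0.58 without null replicate 2. Cox4i1, the regulatory subunit that binds ATP, differed by 0.22 (SE 0.13), and Cox6b1, the somatic counterpart of Cox6b2, by 0.18 (SE 0.11), with 0.17 (SE 0.12) at its second probe. Cox7a2 stood at 0.15 (SE 0.14), between 0.069 without wild-type replicate 4 and 0.24 without wild-type replicate 1. Cox5b, a zinc-binding subunit, stood at 0.08 (SE 0.11), and at 0.027 without null replicate 4. For Cox6a1 the brighter probe differed by 0.09 (SE 0.12) and the other by 0.27 (SE 0.11), where null arrays read 12.85 to 13.01 and wild-type arrays 12.61 to 12.86. Cox4i2, Cox7b2 and Cox8c were detected on no array, and Cox8b on 0 null and 2 wild-type arrays, so no difference is given for them. Cox4nb (now Emc8), a gene of the endoplasmic reticulum that shares only the start of its symbol, had probes at -0.09 (SE 0.16) and 0.29 (SE 0.15). Its brighter probe read 7.61, 7.56, 7.97 and 7.51 on null arrays, against 7.64, 7.61, 7.60 and 8.17 on wild-type arrays, and its dimmer probe 6.41, 6.90, 6.83 and 6.31 on null arrays, against 6.27, 6.35, 6.27 and 6.39 on wild-type arrays.

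In complex V, Usmg5 had the largest difference of all members. Usmg5 (now Atp5md), a small Fo-associated protein that helps ATP synthase form dimers, read 8.69, 8.37, 8.41 and 8.75 on null arrays, against 7.92, 7.96, 8.06 and 8.13 on wild-type arrays. The lowest null array lay above the highest wild-type array, with a difference of 0.54 (SE 0.13, 1.45-fold, limma adjusted p = 0.66), the 16th smallest p of all 13413 probes. Leaving out any 1 array kept it between 0.47 and 0.60. Atp5j2, the f subunit of Fo, read 13.44, 13.30, 13.36 and 13.49 on null arrays, against 13.30, 13.01, 13.07 and 13.00 on wild-type arrays (difference 0.30, SE 0.12, limma adjusted p = 0.71). Wild-type array 1 equalled null array 2 to within rounding, and the other wild-type arrays lay below. Atp5e, the epsilon subunit of F1, read 8.94, 8.36, 8.74 and 9.25 on null arrays, against 8.58, 8.45, 8.33 and 8.51 on wild-type arrays (difference 0.35, SE 0.17). Null array 2 lay within the wild-type range and the other null arrays above it. Without null replicate 4 the difference was 0.21.

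**Figure D5:**
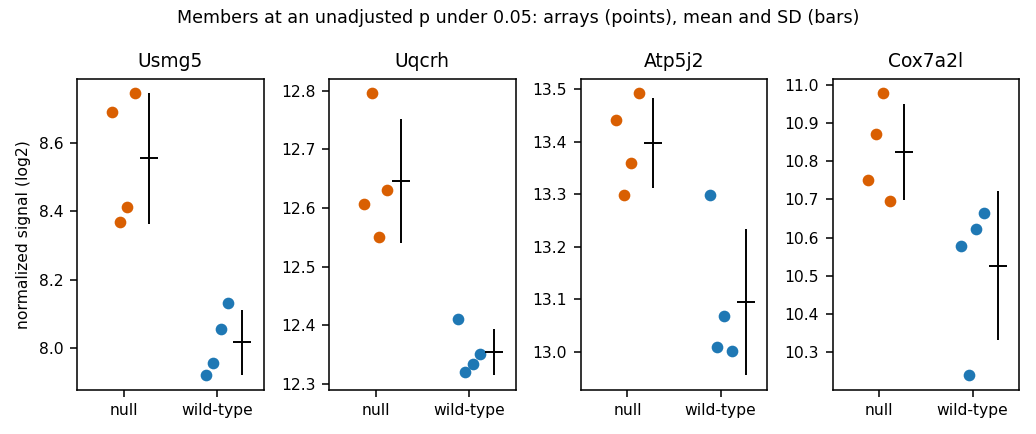
Normalized signal (y axis, log2) of the 4 members with an unadjusted p under 0.05 at their brightest probe, with a point for each null (orange) and wild-type (blue) array and the mean ± SD of each group. Axes differ between panels and do not start at 0; groups are apart for Usmg5, Uqcrh and Cox7a2l.

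The ATP synthase genes were also split in a grouping that was chosen after the values were seen and was not tested. The genes of F1 together with Atp5o, 6 in total, had a median of -0.01, with 3 higher and 3 lower in null arrays. The other 8 genes, without Atpif1, had a median of 0.15, with 7 higher. They encode Fo and Fo-associated proteins and also parts of the peripheral stalk (Atp5f1, Atp5h and Atp5j), so they are not membrane parts alone. Atp5b, the catalytic beta subunit, differed by -0.10 (SE 0.13), Atp5a1, the alpha subunit, by -0.03 (SE 0.19), and Atp5c1, the central gamma shaft, by -0.02 (SE 0.11). Atp5d, the delta subunit of F1, stood at 0.02 (SE 0.13) and Atp5o, which links F1 to the peripheral stalk, at 0.01 (SE 0.13). Among Fo genes, Atp5g2 and Atp5g3, which encode the same proton-carrying ring protein, stood at 0.19 (SE 0.20) and -0.08 (SE 0.12). The sign of Atp5g2 turned without null replicate 2, and that of Cox5a, Atp5a1, Atp5c1, Atp5d and Atp5o also depended on single arrays. Atp5l, the g subunit, differed by 0.17 (SE 0.12) and Atp5h, the d subunit, by 0.11 (SE 0.13). Atp5f1 (now Atp5pb), the b subunit of the stalk, differed by 0.13 (SE 0.15), but by 0.0019 without null replicate 2 and 0.24 without null replicate 4. Atp5j, coupling factor 6, read 12.49, 12.26, 12.14 and 12.30 on null arrays, against 12.42, 12.25, 12.01 and 12.10 on wild-type arrays (difference 0.10, SE 0.13). A dimmer Atp5j probe, at 9.08, 8.59, 9.10 and 8.98 on null arrays and 8.96, 8.70, 9.05 and 9.09 on wild-type arrays, differed by -0.01 (SE 0.15), with overlap at both probes. Atpif1, the inhibitor that stops ATP synthase from running backwards, stood at 0.12 (SE 0.11). Atp5k was detected on no array. Atp5s and Atp5sl (now Dmac2l and Dmac2) stood at 0.04 (SE 0.12) and -0.12 (SE 0.17).

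Genes that build or regulate the complexes did not pass the test either. Of 33 listed assembly factors 16 were matched to the table and 15 tested, of which 10 stood higher and 5 lower on null arrays (median 0.03), with 0 past the threshold. Those with the smallest p were Cox10, a heme synthesis enzyme for complex IV, at -0.16 (SE 0.12), the copper chaperone Cox17 at 0.16 (SE 0.12) and Cox18, which inserts a complex IV subunit into the membrane, at -0.12 (SE 0.11). For Cox18 all null arrays lay below all wild-type arrays (background 2.75%), but barely. Its highest null array read 9.020 and its lowest wild-type array 9.022. Of 12 tested carriers and inner membrane genes 5 were higher, with a median of -0.06. Ndufa4, now counted with complex IV, differed by 0.29 (SE 0.13), the mitochondrial creatine kinase gene Ckmt1 by -0.22 (SE 0.13), and Etfb, a subunit of the electron transfer flavoprotein, by 0.18 (SE 0.13). Of 9 tested regulators of respiratory genes 2 stood higher and 7 lower (median -0.11). Ppargc1b, the paralogue of Ppargc1a, differed by -0.22 (SE 0.14), Gabpb1, a subunit of GABP, by -0.23 (SE 0.15), and Nrf1 by -0.20 (SE 0.14).

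Complex I and ribosomal protein genes had similar medians. The 31 tested complex I genes had a median of 0.12 with 22 higher in null arrays, and the 56 tested cytosolic ribosomal protein genes 0.16 with 49 higher. Among the 2002 genes with the highest mean signal, which held 25 of the 38 members, 947 were higher in null arrays and the median was -0.01. None of these comparisons of lists was tested.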

How the data were processed

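Striatal RNA of 4 null and 4 wild-type samples was measured on Illumina bead arrays. RNA was isolated from frozen tissue with Trizol and turned into biotinylated cRNA, per the labels' protocols, and the submitters' processing notes name GenomeStudio. The deposited table holds, for every probe, the linear bead intensity without normalization between arrays, with its detection p-value, per the file headers. The authors' processed intensity values served as an alternative. Groups and replicate numbers came from the sample titles.

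Intensities were background corrected from the detection p-values with an offset of 16, quantile normalized and put on the log2 scale (neqc, limma 3.58.1, R 4.3.3); the deposited values carry no log2 step. Each probe detected (p under 0.05) on at least 4 arrays entered a linear model (lmFit, eBayes) of null minus wild-type with two-sided p-values and Benjamini-Hochberg adjustment over 13413 probes at a threshold of 0.05. The fit was tested on simulated data whose added changes were larger than any member's difference. That test does not show how often differences of the size seen here would pass. The detected probe with the highest mean stood for a gene. Deviations subtract from each array's log2 reading that gene's average of the 8 arrays, and are averaged over genes. Array values in full are given for members without overlap, for the 3 with the smallest p in each complex and for those with probes of opposite sign; other lists give the 3 genes with the smallest p. The members and lists were chosen with earlier results of these data known; the complex I and ribosomal lists, taken by symbol, were added after the data were seen. Newer symbols and promoters are from RefSeq (GRCm38.p6). The replicate numbers were not taken to pair samples. The number of arrays limits the precision. Alternatives were cyclic loess, median centring, no background correction, the authors' values (floor 16), other detection filters, array weights, the replicate block, leaving out each array and averaging a gene's probes.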

Additional observations from a re-analysis of the deposited data

Results flagged for a closer look

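In 6 of 100 groups of 4 arrays examined, an array stood far from the other 3 by Dixon's criterion; chance gives about 1 in 20. Sdhc read 10.54 on null array 1, against 10.30 to 10.31 on the other null arrays, and Atp5c1 read 12.04 on the same array, against 11.82 to 11.85. The second Cox6a1 probe read 12.85 on null array 1, below the 12.99 to 13.01 of the other null arrays. Atp5d read 11.28 on null array 4, against 10.84 to 10.91 on the other null arrays. Among wild-type arrays, Atp5f1 read 10.31 on array 1, against 10.13 to 10.16, and the brighter Cox4nb probe read 8.17 on array 4, against 7.60 to 7.64.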

How the results depend on the processing

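No probe passed the threshold under any of the 16 alternatives run on the whole table; the lowest adjusted p was 0.057 over all probes and 0.39 among members, and 387 to 1623 probes stood at an unadjusted p under 0.05. Deviations of same-numbered samples correlated at 0.087, -0.0037, 0.23 and 0.045 over probes, and those of differently numbered samples at -0.29 to 0.21. Only the value of 0.23, for number 3, lay above that range, and the numbers were not taken as pairs. The replicate block left 0 probes past the threshold and the complex medians at 0.07, 0.11, 0.20 and 0.11. The other alternatives kept the sign of the 4 complex medians. Median centring gave 0.02 for complex II, and averaging a gene's probes gave 0.075 for complex III and cytochrome c. Between 26 and 32 genes were higher in null arrays under the alternatives, the 32 with undetected genes added. Of 607 values of member genes under an alternative, 582 kept their direction and 25, from 11 genes, turned it; the cause was not tested. Array weights gave 0.011 for Atp5c1 and -0.020 for Atp5d, cyclic loess 0.025 for Cox5a, and median centring -0.022 for Atp5d and -0.027 for Atp5o. Leaving out 1 array at a time put Atp5a1 between -0.20 and 0.081, Atp5c1 between -0.077 and 0.0030, Atp5d between -0.081 and 0.065, Atp5g2 between -0.014 and 0.31, Atp5o between -0.083 and 0.061, Atp5s between -9.0e-05 and 0.12, Atp5sl between -0.26 and 0.0023, Cox4nb between -0.20 and 0.047, Cox5a between -0.13 and 0.085, Uqcc between -0.019 and 0.20, and Uqcrc1 between -0.13 and 0.0025. Over the same 8 omissions the complex II median ran from 0.01 to 0.13, complex III with cytochrome c from 0.06 to 0.18, complex IV from 0.15 to 0.25, complex V from 0.06 to 0.17, and the number of genes higher in null arrays from 26 to 31.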

Other observations

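The Cox6a2 and Cox7a1 genes, muscle-type isoforms of complex IV subunits that the member rule leaves out, were uneven within each group. Cox6a2 read 8.37, 7.44, 7.41 and 7.94 on null arrays, against 8.03, 8.11, 7.51 and 7.22 on wild-type arrays (difference 0.07, SE 0.25). Cox7a1 read 6.07, 5.41, 4.83 and 5.89 on null arrays, against 5.69, 5.85, 4.91 and 4.91 on wild-type arrays (difference 0.21, SE 0.29). Both were high on null arrays 1 and 4 and on wild-type arrays 1 and 2, the arrays on which Pvalb read 9.52, 9.87, 9.02 and 9.26; on the other arrays Pvalb read 6.43 and 5.11 in null and 5.74 and 5.28 in wild-type. Cox6a1, the counterpart of Cox6a2 in other tissues, spanned 13.48 to 13.66 on null arrays and 13.38 to 13.68 on wild-type arrays and had no such split. Ppargc1a had the opposite split, at 7.22 to 7.43 on the arrays with high Pvalb and 7.90 to 8.10 on the others. The members' average deviation was 0.12 and 0.12 on null arrays 1 and 4, and 0.06 and -0.06 on wild-type arrays 1 and 2. It was 0.01 and -0.01 on null arrays 2 and 3, and -0.12 and -0.11 on wild-type arrays 3 and 4. The part of this split in the members' values was not tested.

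The Y-linked gene Eif2s3y read 9.49, 9.29, 4.41 and 9.40 on null arrays, against 4.35, 9.14, 4.32 and 4.40 on wild-type arrays, so 3 null arrays and 1 wild-type array carried it at a high level. Xist read 4.76, 4.64, 8.57 and 4.59 on null arrays, against 8.26, 4.91, 8.70 and 8.52 on wild-type arrays, the opposite pattern. Ddx3y, also Y-linked, read 11.21, 11.18, 10.61 and 11.24 on null arrays, against 9.64, 10.52, 9.99 and 10.59 on wild-type arrays. Among null arrays its lowest reading was on array 3, as for Eif2s3y, and among wild-type arrays it was high on arrays 2 and 4. On wild-type array 4 Eif2s3y was low and Xist high, so Ddx3y did not follow the split of those genes there. The part of this pattern in the members' values was not tested. Usmg5 read 8.41 on the null array with high Xist and 7.96 on the wild-type array with high Eif2s3y, each within the range of its own group. The X-linked Cox7b read 8.02 and 7.69 on those arrays.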
